A study of Mus musculus with 6 samples.

Results

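The unfolded protein response (UPR) starts at membrane proteins of the endoplasmic reticulum (ER) and ends in the nucleus, and 9 genes that carry this signal were followed here. They encode the sensors IRE1 (Ern1), PERK (Eif2ak3) and ATF6 (Atf6), the transcription factors XBP1 (Xbp1), ATF4 (Atf4) and CHOP (Ddit3), the phosphatase subunit GADD34 (Ppp1r15a), and the site-1 and site-2 proteases (Mbtps1 and Mbtps2). They were taken by symbol from a table of 55450 genes, of which 22056 had enough reads to be tested, among them all 9. Ddit3 names a pair of rows, and the row with the higher mean count was used. The samples were tumours of MTE-Ras, a line of tracheal epithelial cancer cells of the mouse that carries transforming oncogenic RAS, grown subcutaneously on the flank of C57BL/6 mice. Tumours were injected with PV-10, a rose bengal formulation made for injection into lesions (n = 3), or with phosphate-buffered saline, PBS (n = 3), and both groups carried the same RAS-transformed line. Dose and time after injection are not given in the sources used here. The series is titled for ER stress, apoptosis and immunogenic cell death under PV-10, and its design sets PV-10 tumours against PBS tumours.

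When misfolded proteins gather in the ER, IRE1 cuts Xbp1 mRNA so that an active XBP1 protein can be made. PERK phosphorylates the translation factor eIF2, which slows protein synthesis overall while ATF4 is translated more, and ATF4 in turn induces CHOP and GADD34, the subunit that directs protein phosphatase 1 to eIF2. ATF6 moves to the Golgi, where the site-1 and then the site-2 protease release its transcription factor domain. Most of these steps act on proteins or on splicing, whereas the files hold the total RNA level of each gene.

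Total gene counts were 60082066, 36730318 and 94203331 in PV-10 tumours 1, 2 and 3, and 87386266, 92608727 and 98717951 in PBS tumours 1, 2 and 3. PV-10 tumour 3 stood apart from its group. Across genes its log2 expression correlated at 0.874 and 0.822 with PV-10 tumours 1 and 2, against 0.909 to 0.93 with the PBS tumours, so the results below are also given without it. Protein-coding genes took 71.3% to 76.9% of counts in PV-10 tumours and 87.1% to 89% in PBS tumours, and long transcripts were lower relative to short ones in every PV-10 library than in any PBS library. Among epithelial markers Krt8 was at 157 to 270 CPM (counts scaled to library size by TMM) in PV-10 tumours and at 238 to 394 CPM in PBS tumours, whereas Epcam did not exceed 1.31 CPM in any tumour. The summed level of the 9 epithelial markers was 511 to 694 CPM in PV-10 tumours and 521 to 866 CPM in PBS tumours. These sums overlapped, but not every member did. Cdh1 was lower in all PV-10 tumours (3.06, 4.05 and 5.62 CPM) than in PBS tumours (8.75, 8.78 and 10.3 CPM). Cldn4, at low levels, was higher (0.757, 2.55 and 0.228 against 0.193, 0 and 0 CPM). The other epithelial markers overlapped between the groups, and 0 of the 9 were called. Fewer cells of a type and less RNA per cell cannot be told apart in these bulk samples.

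The cut that IRE1 makes in Xbp1 RNA is the best known RNA step of the pathway, and the stretch it removes is shown here because the gene-level counts cannot see it. In transcript Xbp1-201 of Gencode M21 the stretch lies in exon 4 of 5, on the plus strand at chr11:5524279-5524304 of mm10. It is 26 bases long, leaves a remainder of 2 when divided by 3, and so shifts the reading frame when removed. The cut stretch is in capitals, with 12 bases of exon on each side.
Xbp1: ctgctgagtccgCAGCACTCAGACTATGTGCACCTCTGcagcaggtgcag
Of 4 annotated Xbp1 transcripts 3 hold the stretch and 0 join its flanks, so reads from cut and uncut Xbp1 RNA fell into the same value. The Xbp1 values below are therefore levels of both forms together.

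RefSeq promoter windows on GRCm38.p6, from 250 bases before to 50 after the start, were available for 8 of the 9 genes, all but Atf6. They were searched on both strands for the ER stress elements ERSE (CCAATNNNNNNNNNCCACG) and ERSE-II (ATTGGNCCACG), for the XBP1 and ATF6 core TGACGTGG, for the cyclic AMP response element TGACGTCA and for the ATF4 core TGATGNAA. These letters are in 0.119%, 0.0365%, 0.676%, 1.79% and 3.97% of all 32851 windows in that order. The single match in the 8 windows was TGACGTCA in Ppp1r15a. It is shown in capitals in the 72 bases before the start, at chr7:45526269-45526340 on the minus strand.
Ppp1r15a: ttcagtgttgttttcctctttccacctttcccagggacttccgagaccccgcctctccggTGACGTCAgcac
For the other 7 windows no match says only that these letters are not in them.

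None of the 9 genes passed the test between PV-10 and PBS tumours, and all 9 had a negative log2 change. The changes ran from -1.60 for Ern1 to -0.11 for Atf4, with a median of -0.64, against a median of 0.30 over all tested genes. Relative to that median, Ern1 lay at -1.9 and Atf4 at -0.41, but the median depended on which genes were kept. It was 0.06 at a mean count of at least 50, where Atf4 was at 0.05 and Ern1 at -1.48. Without a low-count filter the median was 1.63. By edgeR's quasi-likelihood test with Benjamini-Hochberg adjustment, 0 of 9 were called at an adjusted p under 0.05, while 3.17% of all tested genes were called higher and 1.92% lower. At an unadjusted p under 0.05 there were 3 of the 9 (Ern1, Atf6 and Mbtps1), beside 6627 of the 22056 tested genes. The share among the 9 was thus similar to that among all tested genes. For these 3 genes every PV-10 tumour lay below every PBS tumour in CPM, a pattern seen in 16.8% of all tested genes. Without PV-10 tumour 3, 5 of the 9 were called lower (Ern1, Xbp1, Mbtps1, Atf6 and Eif2ak3) beside 16.4% of the genes tested then. Quality weights in limma-voom, which gave PV-10 tumour 3 the lowest weight, called 6 lower beside 21.2%. DESeq2 called Ern1 and Atf6, beside 8.63% of its tested genes.

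**Figure D1:**
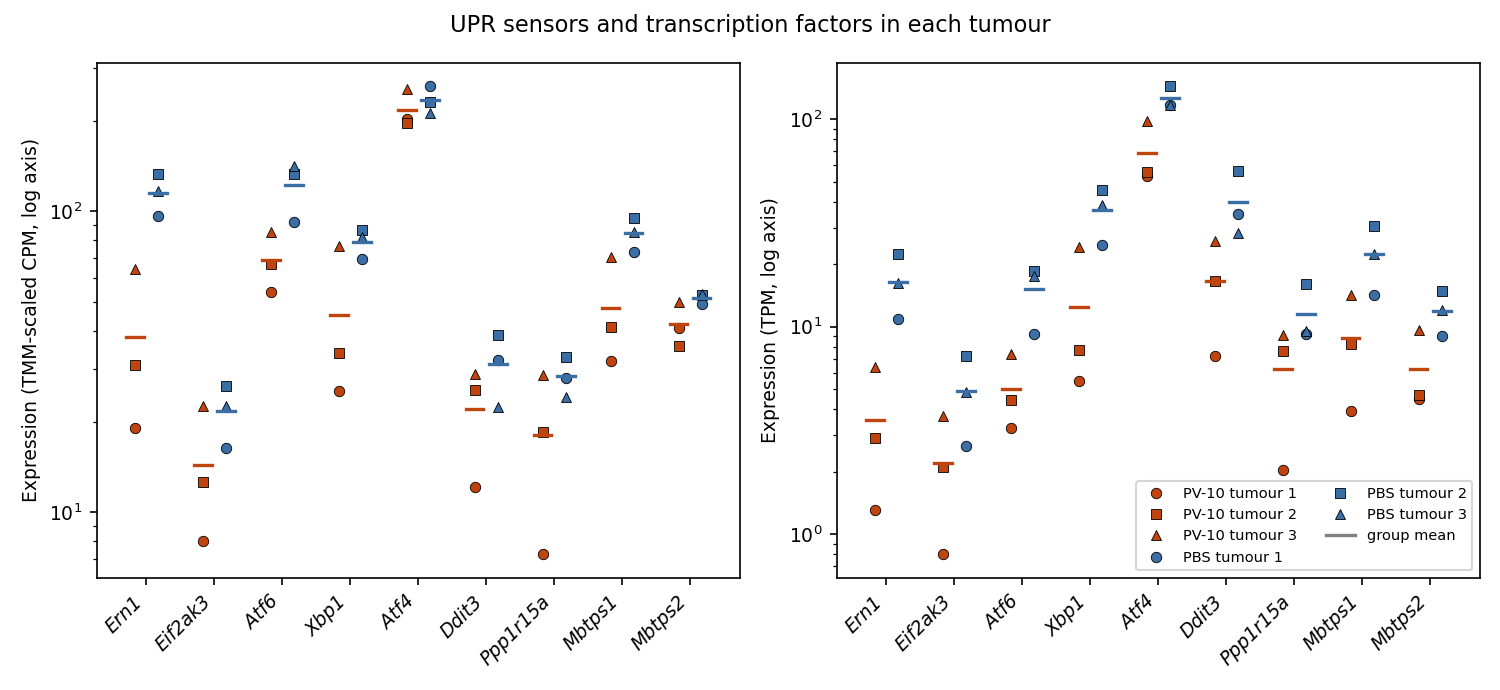
Level of each of the 9 genes in each tumour, as TMM-scaled CPM (left) and TPM (right), both on log axes. Points are tumours, with PV-10 left of PBS for each gene, and horizontal bars are means of 3 tumours. PV-10 tumour 3 (triangle) is the highest PV-10 tumour for every gene, and the Ern1 groups are the farthest apart.

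The sensor genes differed in how far they were from PBS levels. Ern1, the gene of the IRE1 kinase and nuclease (ENSMUSG00000020715.9, mm10 chromosome 11, 106394650 to 106487852), had 19.1, 30.9 and 64.3 CPM in PV-10 tumours 1, 2 and 3 and had 96.4, 133 and 117 CPM in PBS tumours 1, 2 and 3. Every PV-10 tumour was below every PBS tumour, and PV-10 tumour 3 was the nearest to PBS. The means were 38.1 ± 23.5 CPM in PV-10 and 115 ± 18.4 CPM in PBS tumours (SD, n = 3 each), a ratio of 0.33. The log2 change of -1.60 (SE 0.43) missed the threshold at an edgeR adjusted p of 0.0558. Only 2.5% of tested genes had a log2 change this low or lower. Without PV-10 tumour 3 the change was -2.21 with an edgeR adjusted p of 0.00101, and with each library's trend in transcript length and GC content removed it was -1.09 with an edgeR adjusted p of 0.0846.

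Atf6, the gene of the membrane-bound transcription factor ATF6 (ENSMUSG00000026663.6, mm10 chromosome 1, 170704674 to 170867771), was at 53.9, 66.9 and 85.2 CPM in the PV-10 tumours and at 92.3, 133 and 141 CPM in PBS tumours. The groups did not overlap, though PV-10 tumour 3 and PBS tumour 1 were close. The log2 change was -0.83 (SE 0.29, edgeR adjusted p = 0.0947), and -1.01 without PV-10 tumour 3 (edgeR adjusted p = 0.0138). Eif2ak3, the gene of the eIF2 kinase PERK (ENSMUSG00000031668.14, mm10 chromosome 6, 70844515 to 70905245), was at 8.05, 12.6 and 22.5 CPM in the PV-10 tumours and at 16.3, 26.2 and 22.6 CPM in PBS tumours. PV-10 tumours 1 and 2 were below all PBS tumours, whereas PV-10 tumour 3 lay among them. Its log2 change was -0.59 (SE 0.38, edgeR adjusted p = 0.328), and -1.07 without PV-10 tumour 3 (edgeR adjusted p = 0.0287).

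Of the transcription factor genes, Xbp1 showed the widest gap between PV-10 tumours 1 and 2 and the rest. Xbp1 (ENSMUSG00000020484.18, mm10 chromosome 11, 5520659 to 5525893) was at 25.2, 33.9 and 76.4 CPM in the PV-10 tumours and at 69.5, 86.5 and 82.1 CPM in PBS tumours. PV-10 tumour 3 was above PBS tumour 1, so the groups overlapped. The log2 change was -0.81 (SE 0.40, edgeR adjusted p = 0.205) with all tumours and -1.42 without PV-10 tumour 3 (edgeR adjusted p = 0.00203). Plasma cells are secretory cells known for abundant XBP1. Their 7 markers summed to 40.0, 41.9 and 56.6 CPM in PV-10 tumours and to 54.6, 53.3 and 65.4 CPM in PBS tumours. At least 34.3 CPM of each sum was Sdc1, which epithelial cells also express. Mzb1 had 0 counts in all 6 tumours. Jchain reached at most 0.774 CPM and Tnfrsf17 at most 0.409 CPM, and both had 0 counts in PV-10 tumour 3. The immunoglobulin genes went the other way. PV-10 tumour 3 had the highest Ighm (9.08 CPM), Igkc (2.12 CPM) and Iglc1 (0.388 CPM) of all tumours. The highest PBS values of these genes were 4.72, 0.965 and 0.0579 CPM, all from PBS tumour 3. The part of plasma cells in the Xbp1 levels was not tested.

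Atf4 (ENSMUSG00000042406.8, mm10 chromosome 15, 80255184 to 80257541) was the most abundant of the 9 and the closest between the groups. It was at 203, 196 and 254 CPM in the PV-10 tumours and at 260, 231 and 212 CPM in PBS tumours, with PV-10 tumour 3 above PBS tumours 2 and 3. The log2 change of -0.11 (SE 0.26, edgeR adjusted p = 0.804) turned positive, to at most 0.05, in 4 of the alternatives. Ddit3, the gene of the stress-induced and death-linked factor CHOP (ENSMUSG00000025408.15, mm10 chromosome 10, 127290774 to 127296288), was at 12.1, 25.5 and 28.7 CPM in the PV-10 tumours and at 32.0, 38.8 and 22.3 CPM in PBS tumours. PBS tumour 3 lay below PV-10 tumours 2 and 3, and the log2 change was -0.49 (SE 0.36, edgeR adjusted p = 0.39). Neither gene was called with any tumour left out.

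The GADD34 gene Ppp1r15a (ENSMUSG00000040435.12, mm10 chromosome 7, 45522916 to 45526268) was at 7.25, 18.5 and 28.5 CPM in the PV-10 tumours and at 27.9, 32.8 and 24.1 CPM in PBS tumours. PV-10 tumour 1 was far below the rest, and PV-10 tumour 3 lay within the PBS range. The log2 change was -0.64 (SE 0.43, edgeR adjusted p = 0.343), and -1.14 without PV-10 tumour 3 (edgeR adjusted p = 0.0506).

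The protease genes, whose ratio to each other overlapped between the groups, had log2 changes of -0.82 and -0.29, which became -0.29 and -0.32 with the length and GC trend removed. Mbtps1, for the site-1 protease that makes the first cut in ATF6 (ENSMUSG00000031835.16, mm10 chromosome 8, 119508156 to 119558735), was at 31.8, 41.4 and 70.5 CPM in the PV-10 tumours and at 73.5, 94.7 and 85.1 CPM in PBS tumours. The groups did not overlap, and the log2 change was -0.82 (SE 0.33, edgeR adjusted p = 0.133), or -1.20 without PV-10 tumour 3 (edgeR adjusted p = 0.00378). Mbtps2, for the site-2 protease that makes the second cut within the membrane (ENSMUSG00000046873.18, mm10 chromosome X, 157535371 to 157598715), was at 41.1, 35.8 and 49.8 CPM in the PV-10 tumours and at 49.1, 52.7 and 53.0 CPM in PBS tumours. PV-10 tumour 3 was just above PBS tumour 1, and the log2 change was -0.29 (SE 0.25, edgeR adjusted p = 0.455).

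**Figure D2:**
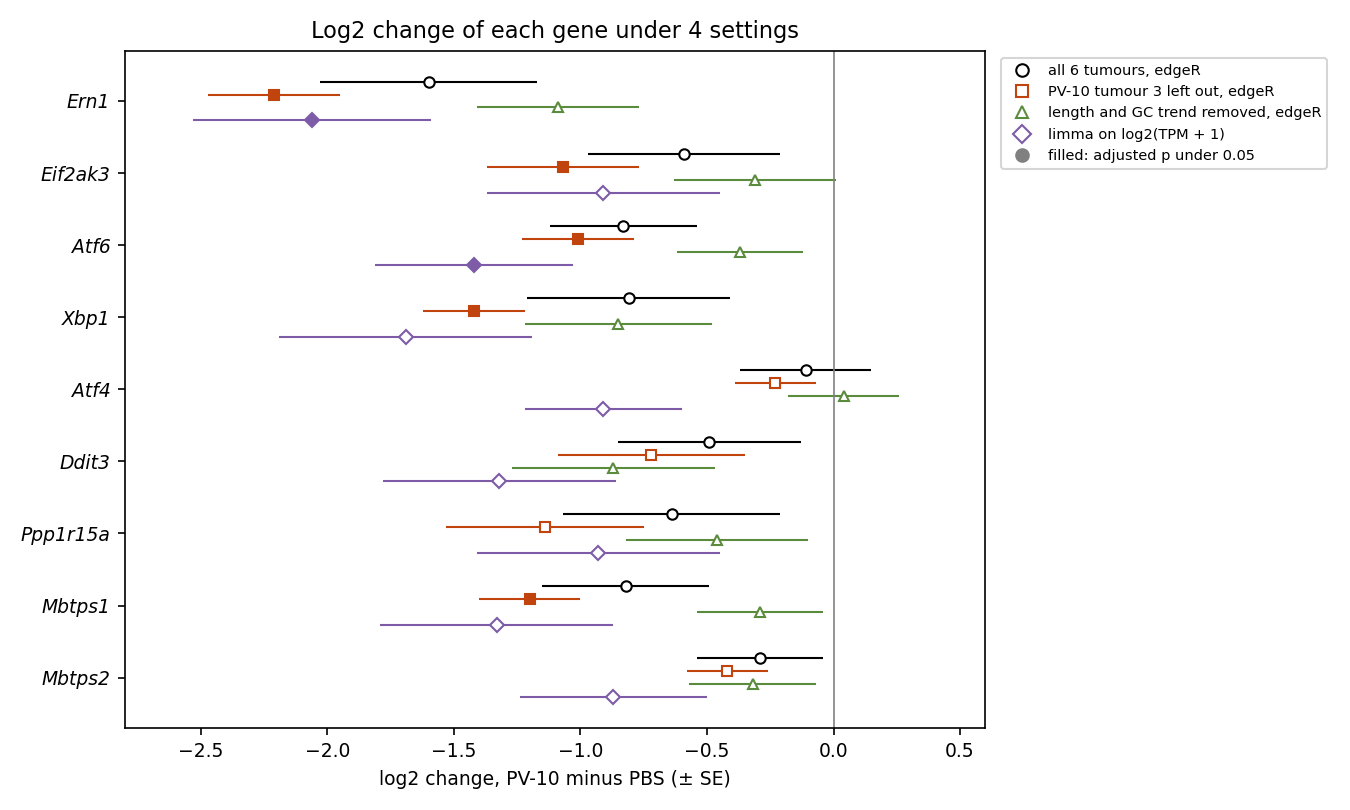
Log2 change (PV-10 minus PBS) with its standard error for each of the 9 genes under 4 settings, filled where the adjusted p was under 0.05. Leaving out PV-10 tumour 3 (squares) moved every gene further below 0 and called 5 of them, while removing the length and GC trend (triangles) called none and put Atf4 at 0.04.

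For most of the 9 genes the distance from PBS was set mainly by PV-10 tumours 1 and 2. For Ddit3 it was set mainly by PV-10 tumour 1. Its log2 CPM differed from the PBS mean by -1.32, -0.24 and -0.08 in PV-10 tumours 1, 2 and 3. For Ppp1r15a these differences were -1.95, -0.6 and 0.02. Averaged over PV-10 tumours 1 and 2, log2 CPM lay below the PBS mean by 2.24 for Ern1. The differences for the other 8 genes ran from -1.43 for Xbp1 to -0.23 for Atf4. In PV-10 tumour 3 the difference was -0.83 for Ern1, -0.49 for Atf6 and -0.25 for Mbtps1, and between -0.08 and 0.12 for the other 6. Skeletal muscle markers summed to 60.9, 267 and 4.35 CPM in PV-10 tumours and to 36.1, 6.06 and 3.89 CPM in PBS tumours. Endothelial markers summed to 140, 115 and 364 CPM in PV-10 tumours and to 196, 439 and 375 CPM in PBS tumours. This sum too was low in PV-10 tumours 1 and 2 and within the PBS range in PV-10 tumour 3. Of its members, Pecam1, Cdh5 and Kdr were below every PBS tumour in both PV-10 tumours 1 and 2, whereas Tek, Emcn and Vwf were not. Tek there had 6.28 and 9.36 CPM, inside its PBS range of 3.26 to 11.1 CPM. All 6 skeletal muscle markers and all 6 endothelial markers were tested and 0 were called. Adipocyte markers summed to 13.9, 19.1 and 7.36 CPM in PV-10 tumours and to 4.98, 3.31 and 6.36 CPM in PBS tumours. The sum was higher in every PV-10 tumour than in any PBS tumour. Most of it was Fabp4, which made up all of the 7.36 CPM in PV-10 tumour 3. Of the 5 adipocyte markers 3 were tested and 0 were called. The summed fibroblast, leukocyte and T cell markers overlapped between the groups, but not every member did. The leukocyte marker Lyz2 was higher in all PV-10 tumours (989, 1060 and 751 CPM) than in PBS tumours (547, 413 and 337 CPM). Csf1r, of the same list, was lower (56.4, 71.4 and 138 against 257, 169 and 159 CPM). The fibroblast marker Lum was higher (38.6, 15.9 and 17.1 against 5.63, 9.99 and 13.6 CPM). The other members of these lists overlapped. The part of these cell types in the levels of the 9 genes was not tested.

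Transcript length moved with the log2 changes of all genes. The median log2 change was 1.11 for genes whose longest transcript had at most 1000 bases and -0.57 for those over 6000 bases. Ern1, Atf6 and Mbtps1, with longest transcripts of 6946, 7246 and 6789 bases, belong to the longest class. Atf6 and Mbtps1 lay between the quartiles of that class, -1.14 and 0.76, whereas Ern1 lay below it. Ddit3, with 969 bases, was below the lower quartile of 0.19 of the shortest class. Xbp1 and Ppp1r15a were below the lower quartile of -0.31 of their class of 2001 to 3000 bases, and Atf4, in the same class, was above it. Eif2ak3 and Mbtps2 lay between the quartiles of the class of 4001 to 6000 bases, -0.78 and 0.89. Removing the length and GC trend left log2 changes of -0.37 for Atf6 and -0.29 for Mbtps1, against -0.85 for Xbp1 and -0.87 for Ddit3, and edgeR then called 0 of all genes at an adjusted p under 0.05, with 5747 at an unadjusted p under 0.05.

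**Figure D3:**
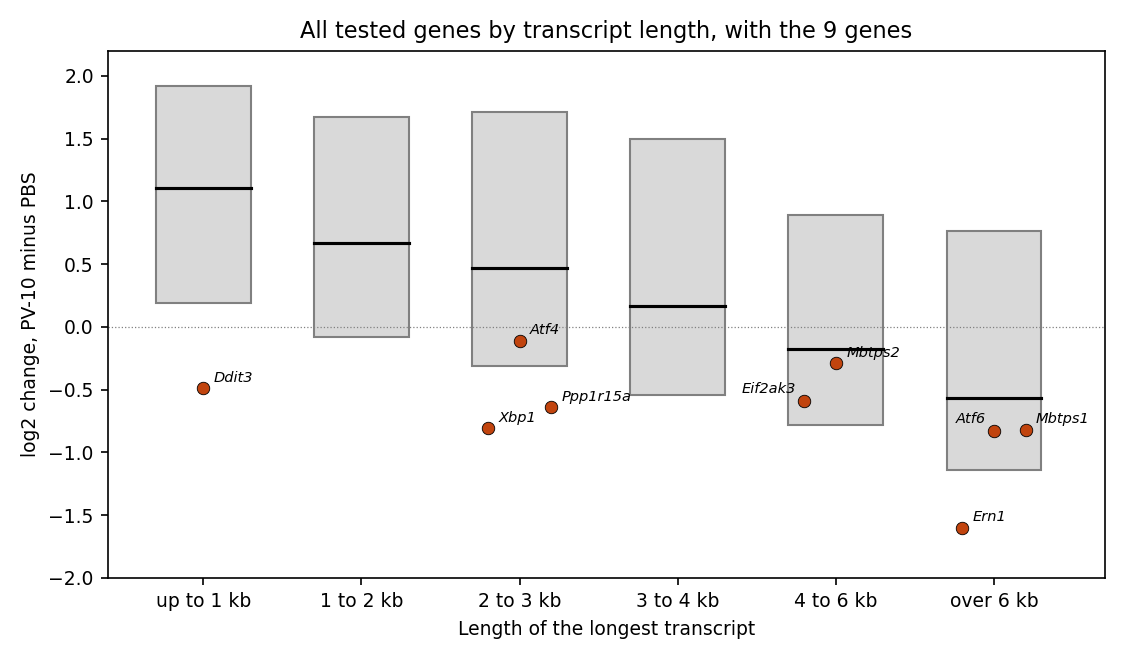
Log2 change (PV-10 minus PBS) of all tested genes by the length of their longest transcript, with a box from the lower to the upper quartile, a line at the median, and the 9 genes as points. The medians go from 1.11 in the shortest class to -0.57 in the longest, and Ern1, Xbp1, Ppp1r15a and Ddit3 lie below the boxes of their classes.

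Levels of different genes were compared in TPM, an abundance scaled by transcript length and library size. Atf4 ranked first and Eif2ak3 last of the 9 in all 6 tumours. Mean levels in PV-10 tumours were 69.1 ± 25.4 TPM for Atf4, 16.6 ± 9.38 for Ddit3, 12.5 ± 10.2 for Xbp1, 8.85 ± 5.24 for Mbtps1, 6.29 ± 2.95 for Mbtps2, 6.27 ± 3.73 for Ppp1r15a, 5.02 ± 2.14 for Atf6, 3.55 ± 2.62 for Ern1 and 2.21 ± 1.47 for Eif2ak3 (SD, n = 3). In PBS tumours they were 126 ± 15.4 TPM for Atf4, 39.9 ± 14.7 for Ddit3, 36.5 ± 10.6 for Xbp1, 22.4 ± 8.14 for Mbtps1, 16.5 ± 5.69 for Ern1, 15.1 ± 5.15 for Atf6, 11.9 ± 2.88 for Mbtps2, 11.6 ± 3.86 for Ppp1r15a and 4.90 ± 2.28 for Eif2ak3 (SD, n = 3). In PV-10 tumours the only neighbours in this order whose values did not overlap were Atf4 and Ddit3, and in PBS tumours these and Ppp1r15a with Eif2ak3. Ern1 was 8th of the 9 in each PV-10 tumour, against 5th, 5th and 6th in PBS tumours 1, 2 and 3.

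On the TPM scale 6 of the 9 genes had all PV-10 tumours below all PBS tumours (Ern1, Atf6, Xbp1, Atf4, Ddit3 and Ppp1r15a), but so did 31% of all tested genes. Atf4 shows how the scales part: in CPM its groups overlapped, whereas in TPM it was at 53.5, 55.5 and 98.4 in PV-10 tumours and at 117, 144 and 117 in PBS tumours. The median change over all tested genes was 0.30 on the TMM scale and -0.21 on log2(TPM + 1). By limma on log2(TPM + 1), Ern1 at -2.06 (SE 0.47, adjusted p = 0.0389) and Atf6 at -1.42 (SE 0.39, adjusted p = 0.0458) were called lower, beside 12.5% of all tested genes.

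Ratios between members within a tumour do not depend on how libraries are scaled, and 7 pairs along the pathway were compared in TPM. The ratio of Xbp1 to Ern1, the substrate to its nuclease, was 4.19, 2.67 and 3.76 in PV-10 tumours and 2.28, 2.05 and 2.38 in PBS tumours. It was higher in every PV-10 tumour than in any PBS tumour, a log2 difference of 0.64 (exact two-sided permutation test, p = 0.1, the smallest that 3 against 3 allows, 0.7 adjusted over 7 pairs). TPM ratios are not free of the trend with transcript length, and with that trend removed from the counts the log2 changes were -0.85 for Xbp1 and -1.09 for Ern1. The ratio of Mbtps1 to Mbtps2 was 0.875, 1.76 and 1.48 in PV-10 tumours and 1.58, 2.07 and 1.86 in PBS tumours, which overlap. Ddit3 over Eif2ak3, 2 genes of 1 branch, was at 8.99, 7.95 and 6.96 in PV-10 tumours and at 13.1, 7.83 and 5.88 in PBS tumours, a log2 difference of -0.09. The remaining 4 pairs, Atf4 and Ppp1r15a over Eif2ak3, Xbp1 over Atf6 and Ddit3 over Atf4, also overlapped, with log2 differences from -0.47 to 0.38.

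The second row named Ddit3 (ENSMUSG00000116429.1, mm10 chromosome 10, 127290829 to 127293753) has a transcript of 105 bases, and all 105 lie inside exons of the main row, so reads from it could be split between the rows. It held 8, 54 and 35 counts in PV-10 tumours and 0, 9 and 1 in PBS tumours, at most 5.47% of all Ddit3 counts in a tumour. It was not called (edgeR log2 change 4.23, SE 2.13, adjusted p = 0.214). Because TPM divides by length, these few counts became 12.2, 146 and 42.1 TPM in PV-10 tumours and 0, 65.6 and 2.13 TPM in PBS tumours. With the counts of both rows summed the log2 change of Ddit3 was -0.45, close to the -0.49 of the main row.

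**Figure D4:**
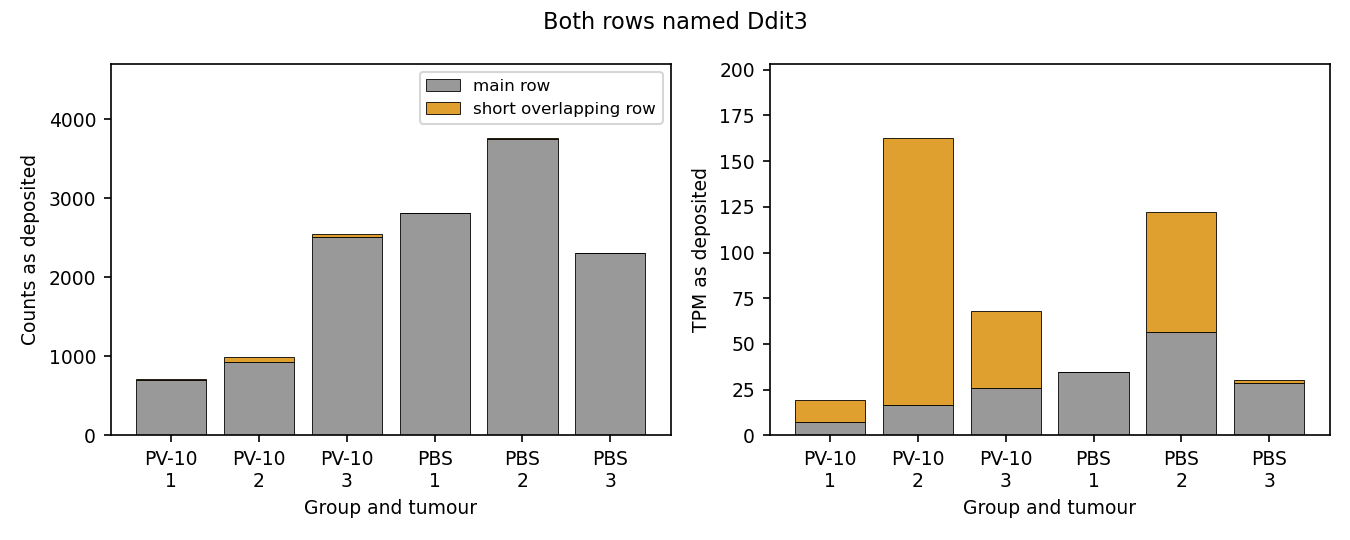
Counts (left) and TPM (right) of both rows named Ddit3 in each tumour, stacked, with the main row in grey and the short overlapping row in orange. The short row holds at most 5.47% of the counts but up to 89.7% of the TPM of a tumour.

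Genes downstream of XBP1 and ATF6, which serve folding, export and degradation in the ER, did not move one way. Of 28 tested, 4 were called higher and 0 lower, beside 3.17% and 1.92% of all tested genes. A negative log2 change was seen in 18 of the 28 and in 41.5% of all tested genes. The median log2 change of the 28 was -0.19 against 0.30 over all tested genes. Dnajb9, an ER co-chaperone, was at 264, 243 and 164 CPM in the PV-10 tumours and at 87.0, 95.1 and 70.0 CPM in PBS tumours (log2 change 1.41, edgeR adjusted p = 0.0443). Manf, a secreted ER stress protein, rose to 297, 289 and 178 CPM in PV-10 tumours, against 118, 105 and 112 CPM in PBS tumours. Sec61b, a subunit of the translocon, rose by 1.78 and Selenos, of ER-associated degradation, by 1.05 on the log2 scale. In these genes PV-10 tumours 1 and 2 lay further above PBS than PV-10 tumour 3. Leaving out any tumour other than PV-10 tumour 3, or removing the length and GC trend, ended each of these 4 calls. Of all genes, only 1 to 5 were called higher with such a tumour left out, and 0 after removal. The lost calls therefore do not single out these 4 genes. Log2 changes after removal were 0.83 for Dnajb9, 1.03 for Manf, 1.92 for Sec61b and 0.69 for Selenos. With removal and a block for tumour number, Sec61b was called (1.74, edgeR adjusted p = 0.0261), whereas Dnajb9, Manf and Selenos were not. The calls also ended on log2(TPM + 1), where limma gave changes of 0.58 for Dnajb9, 0.29 for Manf, 0.85 for Sec61b and 0.22 for Selenos. The main ER chaperone gene Hspa5 was named here after its values were seen. It was at 276, 278 and 350 CPM in the PV-10 tumours and at 342, 351 and 355 CPM in PBS tumours (edgeR adjusted p = 0.592). The lowest log2 changes of the list, also named after the values were seen, were not called. They were -1.52 for Wfs1, -1.27 for Syvn1, -1.13 for Sel1l, -1.12 for Edem1, -1.1 for Hyou1 and -1.08 for Edem3. In all of these but Wfs1 every PV-10 tumour lay below every PBS tumour in CPM, as in 16.8% of all tested genes. With the length and GC trend removed these changes ran from -1.11 to -0.66.

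ATF4 and CHOP targets, which serve amino acid supply, redox balance and cell death, were mostly below PBS without any passing the test. Of 26 tested, 0 rose and 0 fell, beside 3.17% and 1.92% of all tested genes. A negative log2 change was seen in 21 of them and in 41.5% of all tested genes. Their median was -0.70 against 0.30 over all tested genes, and -0.56 against 0.23 after removal of the trend with length and GC. Slc7a5, a transporter of large neutral amino acids, was at 21.2, 38.5 and 84.7 CPM in the PV-10 tumours and at 116, 111 and 166 CPM in PBS tumours (log2 change -1.44, edgeR adjusted p = 0.0782). Cebpb, a partner of CHOP, was at 11.7, 15.4 and 39.6 CPM in the PV-10 tumours and at 39.3, 60.6 and 63.9 CPM in PBS tumours. Among members whose log2 CPM averaged 1 or more, the serine synthesis genes Psat1 and Phgdh were at the other end, with log2 changes of 0.31 and 0.32, while members below that level reached 3.44 without being called. PV-10 tumour 3 was again the PV-10 tumour nearest to PBS for Slc7a5 and Cebpb.

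The gene of the protein that PERK phosphorylates rose. Eif2s1, which encodes the alpha subunit of eIF2, was at 494, 366 and 207 CPM in the PV-10 tumours and at 135, 79.9 and 110 CPM in PBS tumours, and its log2 change was 1.72 (SE 0.37) at an edgeR adjusted p of 0.0443. It was the only called gene of 15 tested for the other eIF2 kinases, eIF2, its exchange factor eIF2B and the phosphatase subunits. Of all tested genes 3.17% were called higher, and the median of the 15 was -0.07. Other members came close to a call. Eif2s2, for another eIF2 subunit, was at 1.34 (edgeR adjusted p = 0.0523) and Ppp1ca at 1.19 (edgeR adjusted p = 0.0603). Eif2s3x, also for an eIF2 subunit, was at 0.11. The call of Eif2s1 was lost without any of the 5 tumours other than PV-10 tumour 3. It was also lost with the length and GC trend removed (log2 change 1.29), and on log2(TPM + 1) by limma (0.83). Of all genes, only 1 to 5 were called higher with such a tumour left out, and 0 with the trend removed. With removal and a block for tumour number, Eif2s1 was called (1.29, edgeR adjusted p = 0.0295). Among paralogs of the sensors and other site-1 protease substrates 8 of 9 were tested, 0 were called and the median was -0.85. With the length and GC trend removed that median was -0.24, against 0.23 over all tested genes. Among members whose log2 CPM averaged 1 or more, the values at the ends were log2 changes of -1.57 for Creb3l2 and -1.43 for Srebf1, a regulator of lipid synthesis, and of 0.19 for Creb3 and -0.76 for Atf6b, the paralog of ATF6, while members below that level reached 1.04. Ern2, the gene of the other IRE1, did not pass the filter.

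Of 6 genes for IRE1 partners 0 were called, with a median log2 change of -0.36, or -0.06 with the length and GC trend removed. Rtcb, the ligase that joins cut Xbp1 RNA, was at -0.72, Zbtb8os, a cofactor of that ligase, at 0.08, the IRE1 inhibitor gene Tmbim6 at -0.76 and the kinase gene Mapk8 at 0.76. Of 6 genes whose mRNAs IRE1 is known to degrade, 1 rose and 0 fell, beside 3.17% and 1.92% of all tested genes, with a median of -0.57. Bloc1s1, which encodes a subunit of lysosome-positioning complexes, was at 89.4, 82.0 and 45.8 CPM in the PV-10 tumours and at 32.0, 19.3 and 25.3 CPM in PBS tumours (log2 change 1.5, edgeR adjusted p = 0.0447). All PV-10 tumours were above all PBS tumours. Its longest transcript has 613 bases, in the class whose median log2 change was 1.11. The call of Bloc1s1 was lost with the length and GC trend removed (log2 change 1.73), on log2(TPM + 1) by limma (0.6), and without any tumour other than PV-10 tumour 3. With the trend removed 0 of all genes were called, and 1 to 5 were called higher without such a tumour. With removal and a block for tumour number, Bloc1s1 was called (1.62, edgeR adjusted p = 0.024).

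**Figure D5:**
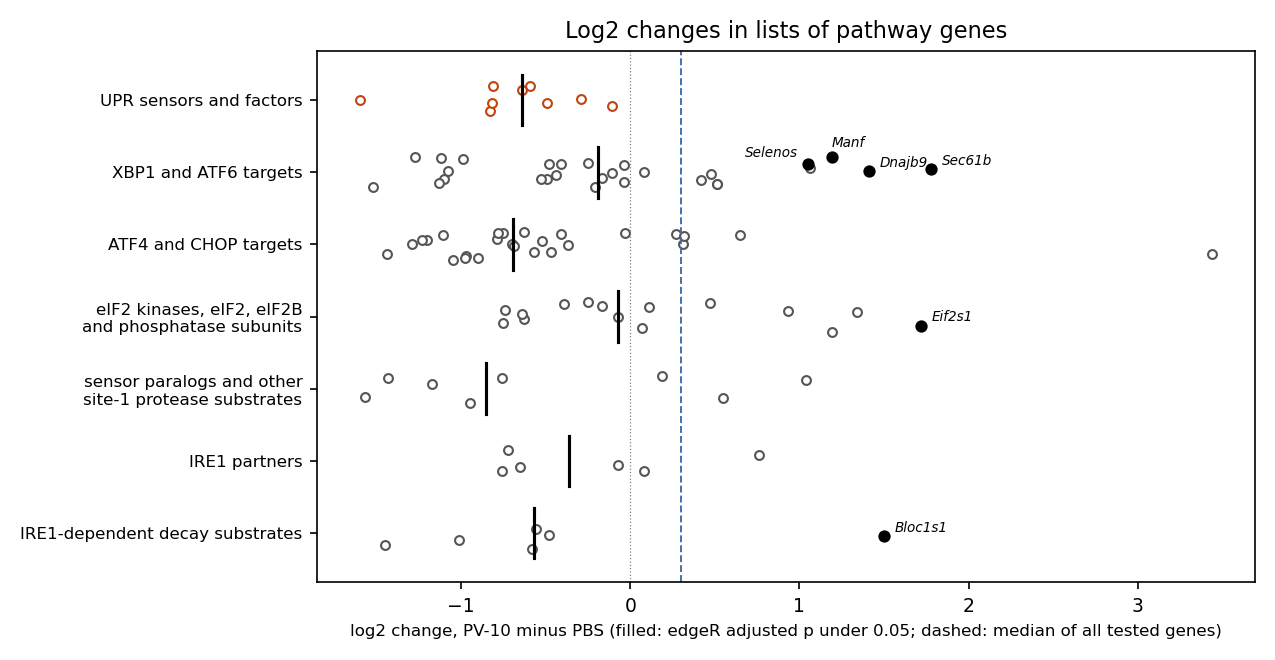
Log2 change (PV-10 minus PBS) of the 9 genes and of the genes in 6 pathway lists, filled where the edgeR adjusted p was under 0.05, with a line at each median and a dashed line at the median of all tested genes, 0.30. The 6 called genes all lie above 0, and the medians of the 9 genes and of all 6 lists lie below 0.30.

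The genes with the most similar pattern over the 6 tumours are given for 3 of the 9 genes, chosen after the values were seen, by the root mean square difference of mean-centred log2 CPM, among 9407 genes. For Ern1 they were Pcdh1 (0.0285), Kmt2b (0.0694) and Ndst1 (0.0801), and for Xbp1 they were Vps37c (0.0496), Csnk1e (0.0514) and Cmtr1 (0.0603). For Ppp1r15a they were Egln3 (0.0712), Ero1l (0.110) and Ndrg1 (0.115). No member came this close to another, though the members are few beside 9407 genes. The closest pair was Xbp1 and Mbtps1, at 0.15, and Mbtps1 ranked 132nd of the compared genes for Xbp1. The closest member by rank was Mbtps1 for Eif2ak3, at rank 63 (0.173). The member closest to Ern1 was Xbp1, at 0.408 and rank 1381.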

How the data were processed

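Gene counts and TPM of 6 tumours, deposited by the authors, were analysed. Per the labels' protocols, strand-specific libraries were made from 100 ng of RNA, adapters were found with BBMerge 37.02 and removed with cutadapt 1.8.1, 100-base read pairs were aligned to mm10 with STAR 2.7.7a, and genes were quantified with RSEM 1.3.0 and Gencode M21. The deposited counts are whole numbers without normalization. The deposited TPM values are scaled by the authors for length and library size. RSEM shares reads among similar genes.

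The main test was edgeR 4.0.16 (R 4.3.3), a robust quasi-likelihood fit of all 6 tumours with TMM scaling and the default expression filter, and p-values were adjusted by Benjamini-Hochberg over the 22056 genes tested (threshold 0.05). Depth was 36730318 to 98717951 counts per tumour, and counting error covers only part of the spread. The labels number 3 tumours per group without saying that each is a separate animal, so p-values measure the spread between these samples, which may be technical. Alternatives were DESeq2 1.42.0 (also named in the labels), other scalings and filters, limma 3.58.1 on log2 TPM (pseudocount 1 or 0.1) or with voom quality weights, removal of each library's trend with transcript length and GC content (splines with 5 degrees of freedom, trend centred per library), a replicate block, each tumour left out, and, chosen after seeing the data, protein-coding genes alone. The test was tried on simulated data.

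The 9 genes, the pathway and marker lists and the tests were chosen with earlier results of these data known. Named list genes are the called members. In lists with none called they are the 2 highest and 2 lowest log2 changes at an average log2 CPM of at least 1. Added after the values were seen were Hspa5, the lowest members of the XBP1 and ATF6 list, and Eif2s2, Eif2s3x and Ppp1ca.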

Additional observations from a re-analysis of the deposited data

How the results depend on the processing

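The results were limited by PV-10 tumour 3, by the trend with transcript length and by the choice of scale. Leaving out PV-10 tumour 3 added calls over all genes, and leaving out any other tumour ended nearly all of them. Bulk RNA levels do not measure splicing of Xbp1 or activation of the sensors. An adjusted p above the threshold does not show that a gene was the same in both groups.

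Ern1 was not called with all tumours (log2 change -1.60) but was called with DESeq2 size factors (-1.53), library size (-1.71), no low-count filter (-1.71), a mean count of at least 50 (-1.48), DESeq2 (-1.53), quality weights (-2.16), log2(TPM + 1) (-2.06), log2(TPM + 0.1) (-2.40) and protein-coding genes alone (-1.51). Atf6 was called with DESeq2 (-0.73), quality weights (-1.05), log2(TPM + 1) (-1.42) and log2(TPM + 0.1) (-1.59). On log2(TPM + 1) without a filter limma called neither Ern1 (adjusted p = 0.0845) nor Atf6 (adjusted p = 0.0924). Quality weights also called Eif2ak3 (-1.06), Xbp1 (-1.37), Ppp1r15a (-1.07) and Mbtps1 (-1.17). Atf4 changed sign at a mean count of at least 50 (0.05), with protein-coding genes alone (0.02), and with the length and GC trend removed, alone or with the replicate block (0.04); the cause was not tested. The number of the 9 genes called lower was 1 with DESeq2 size factors, library size, no filter and a mean count of at least 50. It was also 1 with the replicate block, the trend removed with the block, and protein-coding genes alone. Over all genes, 1068, 1461 and 1818 of 22056 were called lower with DESeq2 size factors, library size and the replicate block. With trend removal and block 669 of 22056 were, and with protein-coding genes alone 1256 of 16171. Without a filter 2627 of 39195 were lower, and 1112 of 15787 at a mean count of at least 50. Of the 9 genes, 2 were called lower with DESeq2 and on either filtered TPM scale, and 6 with quality weights. Over all genes 8.63% were called lower with DESeq2, 12.5% on log2(TPM + 1) and 21.2% with quality weights. On log2(TPM + 0.1) 2833 of 22056 were. On log2(TPM + 1) without a filter, and with the trend alone removed, 0 of the 9 and 0 of all genes were called lower. None of the 9 was called higher in any setting.

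With each tumour left out in turn, the log2 change ranged from -2.21 to -1.27 for Ern1, -1.07 to -0.29 for Eif2ak3, -1.03 to -0.67 for Atf6, -1.42 to -0.51 for Xbp1, -0.23 to -0.05 for Atf4, -0.72 to -0.19 for Ddit3, -1.14 to -0.26 for Ppp1r15a, -1.20 to -0.58 for Mbtps1 and -0.42 to -0.20 for Mbtps2. From 0 to 5 of the 9 were then called lower, 5 without PV-10 tumour 3 and 0 without any other tumour. Over all genes, 1 to 6884 were called higher and 0 to 4515 lower, the highest counts again without PV-10 tumour 3.

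With all tumours 699 genes were called higher and 423 lower. Higher and lower genes numbered 1469 and 1068 with DESeq2 size factors, 2037 and 2627 without a filter, 1593 and 1112 at a mean count of at least 50, 5875 and 2338 with DESeq2, 4859 and 4670 with quality weights, 162 and 2755 on log2(TPM + 1), 342 and 2833 on log2(TPM + 0.1), 3 and 0 on log2(TPM + 1) without a filter, 0 and 0 with the trend removed, and 1549 and 1256 with protein-coding genes alone. Library size gave 1461 lower genes. The scaling moved the median of all genes from 0.30 to 0.43 with DESeq2 size factors and to 0.21 with library size. The choice of genes moved it further, to 0.06 at a mean count of at least 50 and to 1.63 without a filter. With protein-coding genes alone it was 0.20.

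Deviations of tumours with the same number correlated at -0.049, 0.071 and 0.072 for numbers 1, 2 and 3, and those with different numbers at -0.113 to 0.08. With 3 tumours a group such values do not settle whether the numbers pair the tumours. With the replicate block 1054 genes were higher and 1818 lower, and Ern1 was at -1.78 (edgeR adjusted p = 0.0159), and with block and trend removal 669 genes were lower and Ern1 was at -1.16 (edgeR adjusted p = 0.0337).

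Among ratios, Ddit3 over Eif2ak3 turned to 0.0008 without PV-10 tumour 3 and to 0.22 without PBS tumour 1, Atf4 over Eif2ak3 to -0.07 without PV-10 tumour 1, and Ppp1r15a over Eif2ak3 to -0.02 on log2(TPM + 1). With each tumour left out, Ddit3 over Eif2ak3 ranged from -0.35 to 0.22 and Atf4 over Eif2ak3 from -0.07 to 0.71.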

Other observations

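Adding up the deposited TPM by gene symbol turned the direction of Ddit3. The main row averaged 16.6 ± 9.38 TPM in PV-10 tumours and 39.9 ± 14.7 TPM in PBS tumours (SD, n = 3 each), whereas the sum of both rows was 83.2 ± 72.7 TPM in PV-10 tumours and 62.5 ± 51.7 TPM in PBS tumours. Per tumour the sum was 19.4, 162 and 68.0 TPM in PV-10 tumours 1, 2 and 3 and 34.8, 122 and 30.5 TPM in PBS tumours 1, 2 and 3, and the groups overlapped. The turn rests on PV-10 tumour 2: without it the sum averaged 43.7 TPM in PV-10 tumours and 62.5 TPM in PBS tumours, a comparison chosen after seeing the data. The row of 105 bases made up 62.9%, 89.7% and 61.9% of the sum in PV-10 tumours, and 0%, 53.7% and 6.97% in PBS tumours, from counts of 8, 54 and 35 in PV-10 tumours and of 0, 9 and 1 in PBS tumours. In all, 217 rows of the table share a symbol with another row.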
